A study of Mus musculus with 24 samples.

Results

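Microglia from mice homozygous for a knockout of 3110043O21Rik, as C9orf72 is called in the mouse, were compared at 3 months of age with microglia that kept 1 working copy. The samples were chosen by genotype and age from the labels, and they make up 8 of the 24 samples in the series: 4 homozygous knockouts (HOM-8282, HOM-8285, HOM-8286 and HOM-8287) and 4 heterozygous knockouts (HET-8302, HET-8303, HET-8304 and HET-8309). Both groups carried the knockout allele on a C57BL/6J background and were untreated as far as the labels say. The labels do not state how the allele was made or whether several founder lines were used. Wild-type C57BL/6J samples of 3 months (WT-8322, WT-8323, WT-8325 and WT-8326) and the same 2 knockout genotypes at 17 months, 4 samples each, serve as references. Brains without meninges were dissociated with papain, depleted of myelin on beads and enriched for CD11b-positive cells on beads, and polyadenylated RNA was sequenced. The number in each name heads that sample's column in the deposited tables and is read here as an animal number. Nothing in the labels says whether brains were pooled, so the p-values measure the spread between these samples. Values for a group are given in the order of the names above.

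C9orf72 protein forms a complex with Smcr8 and Wdr41 that acts on small GTPases, autophagy and lysosomes, and the gene is best known for a repeat expansion that causes amyotrophic lateral sclerosis and frontotemporal dementia. Myeloid cells, microglia among them, express the gene strongly, and mice without it are known for overactive myeloid cells and enlarged lymphoid organs. Microglia can leave their homeostatic state, marked by P2ry12, Tmem119 and Cx3cr1, for a disease-associated state marked by Cst7, Itgax, Gpnmb and Clec7a. They can also raise MHC class II, the machinery that shows extracellular peptides to T cells.

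Levels are given in TPM, a transcript abundance corrected for transcript length and scaled per library, and each difference is the homozygous minus the heterozygous mean of log2(TPM + 1), which understates the change of genes near 1 TPM. The homozygous libraries held 30.6 to 33.8 M alignments and the heterozygous ones 26.3 to 28.9, without overlap (exact two-sided permutation test, p = 0.0286, the smallest that 4 against 4 can give). All 4 heterozygotes expressed Y-linked genes (a sum of 78.2 to 120.3 TPM over Ddx3y, Eif2s3y, Kdm5d and Uty), as did HOM-8282 and HOM-8285 but not HOM-8286 and HOM-8287. Among the wild types only WT-8326 did. Genotype was therefore not balanced for sex, and values in Y-expressing animals alone (4 HET, 2 HOM) are given where they matter. HET-8304 stood apart from the other heterozygotes: 12117 genes reached 1 TPM in it against 11289 to 11529 in the other 7 animals, and it held the highest summed levels of neuron and astrocyte markers of the 8. Resident microglial genes were abundant in every animal, with P2ry12 at 1987 to 3183 TPM, Tmem119 at 2159 to 3002 TPM and Cx3cr1 at 2931 to 3609 TPM.

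The targeted transcript separated the groups without overlap. 3110043O21Rik lies on chromosome 4, 35191285 to 35226175, minus strand, in mm10. Its level was 9.54, 10.6, 7.37 and 11.4 TPM in the heterozygotes and 0.0491, 0.265, 0.139 and 0.104 TPM in the homozygotes, against 23.5, 21.9, 20.4 and 25.6 TPM in wild types. The group means were 9.73 ± 1.75 TPM (SD, n = 4) in heterozygotes (42.6% of the mean of wild types) and 0.139 ± 0.0918 TPM (SD, n = 4) in homozygotes, 1.43% of the heterozygous mean. Transcript fell in homozygotes by 3.22 on the log2 scale (SE 0.13, adjusted p = 5.43e-08; exact two-sided permutation test of the means, p = 0.0286). In the deposited RPKM table, a separate quantification scaled by transcript length and library size, the heterozygotes lay from 3.73 to 5.56 and the homozygotes from 0.0254 to 0.104 RPKM (log2 difference -2.39). The genes of its protein partners were not called. Smcr8, which binds C9orf72 directly, stood at 23.5, 29.8, 15.9 and 21.9 TPM in the heterozygotes and 23.3, 23.3, 24.3 and 26.4 TPM in the homozygotes (log2 difference 0.12, SE 0.14, adjusted p = 0.917). Wdr41, which ties the complex to lysosomes, stood at 31.4, 34.3, 25.2 and 32.4 TPM in the heterozygotes and 31.1, 30.2, 31.7 and 38.7 TPM in the homozygotes (log2 difference 0.094, SE 0.10, adjusted p = 0.902). HET-8304 held the lowest level of all 3 complex genes among the heterozygotes, and without it the Smcr8 difference was -0.030.

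**Figure D1:**
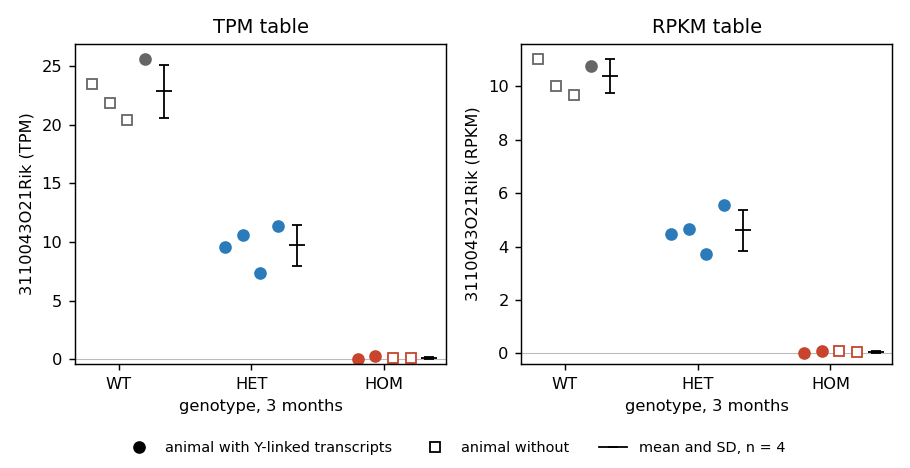
Level of 3110043O21Rik in each 3-month animal, in TPM (left) and RPKM (right), with wild-type (WT), heterozygous (HET) and homozygous (HOM) animals as points and the mean with SD (n = 4) beside them. The 4 homozygotes lie at or below 0.265 TPM and the 4 heterozygotes from 7.37 to 11.4 TPM.

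Beyond the targeted gene, limma called few single genes between the genotypes. At an adjusted p under 0.05 it called 3 of 11587 genes tested, which is 0.0259% (2 higher and 1 lower in homozygotes), and 1 of 10781 genes in the RPKM table, 0.00928%, the targeted gene. Before adjustment, 382 genes (3.3%) were higher and 609 (5.26%) lower at a p under 0.05. The 4 homozygotes lay entirely above the 4 heterozygotes in 174 genes (1.5%) and entirely below in 330 (2.85%). The median difference of all genes tested was 0.0013.

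Both genes called higher came from the TPM table alone. Fbxo21, an F-box protein of a ubiquitin ligase, was listed at 0, 1.66e-07, 0 and 0 TPM in the heterozygotes, against 2.33, 4.03, 3.21 and 1.71 TPM in the homozygotes and 3.76 to 6.81 TPM in wild types (adjusted p = 0.00195). Zfp873, a zinc finger protein, was listed at 0, 0, 8.28e-09 and 2.98e-04 TPM in the heterozygotes, against 1.58, 3.47, 1.92 and 2.12 TPM in the homozygotes (adjusted p = 0.00195). In the RPKM table the differences were -0.070 for Fbxo21, at 3.65 to 4.89 RPKM in heterozygotes and 3.74 to 3.98 in homozygotes, and 0.085 for Zfp873, with overlapping groups for both. In animals with Y-linked transcripts alone (4 HET, 2 HOM), neither kept its call. The differences there were 2.03 for Fbxo21 and 1.76 for Zfp873, against 1.89 and 1.68 with all animals. With a sex term in the limma fit both kept their call (adjusted p = 0.0186 and 0.0232). 3 genes lay just outside the threshold, each at an adjusted p of 0.0595, and were picked out once the values were known. Mr1, an MHC class I-like molecule that shows microbial vitamin B metabolites to T cells, stood at 8.65, 12.04, 11.4 and 11.8 TPM in the heterozygotes and 18.3, 17.5, 17.1 and 18.2 TPM in the homozygotes, but differed by 0.12 with overlapping groups in the RPKM table. The deubiquitinase gene Usp5 differed by 1.16 in TPM and by 0.0071 in RPKM. The predicted gene Gm20594 stood at 2489.9, 2389, 4788 and 1351 TPM in the heterozygotes and 615, 819, 638 and 817 TPM in the homozygotes. In the RPKM table it was too low to be tested, at 0 to 0.853 RPKM in heterozygotes and 0 to 0.248 in homozygotes.

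To find differences carried by both tables, genes were ranked by p among those with a mean of at least 5 TPM, no overlap between the groups in either table and an unadjusted RPKM p under 0.05 in the same direction. That left 57 genes higher and 91 lower in homozygotes, and the 12 first in each direction are described below, of which only the targeted gene passed the adjusted threshold. For 10 of the 12 higher and 9 of the 12 lower genes, the wild-type mean lay nearer to the homozygous than to the heterozygous mean on the log2 scale. Over the whole selection this held for 38 of 57 higher and 38 of 91 lower genes. The number of called genes depended on 2 heterozygotes. With HET-8304 left out limma called 13 genes in all, 7 of these 24 among them, and with HET-8309 left out it called 66 genes, 16 of the 24 among them. With any 1 of the other 6 animals left out it called 3.

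MHC class I presentation genes were mostly higher in homozygotes, by small amounts. Of the 20 list members, all of which were tested, 19 differed upwards and 1 (Erap1) downwards, with a median of 0.12 against 0.0013 over all genes. 0 were called by limma, 6 had an unadjusted p under 0.05, and in 6 the groups did not overlap, namely H2-K1, H2-Q4, H2-Q6, H2-Q7, H2-M3 and Tap1. For comparison, 3.3% of all genes were higher at an unadjusted p under 0.05 and 1.5% were higher without overlap. H2-Q6, which encodes a Qa-2 antigen (chromosome 17, 35424850 to 35430055, plus strand), stood at 9.56, 13.9, 13.95 and 7.173 TPM in the heterozygotes and 25.998, 25.6, 23.8 and 21.1 TPM in the homozygotes (log2 difference 1.09, SE 0.18, adjusted p = 0.0653). Every homozygote lay above every heterozygote, and wild types, at 15.2 to 21.2 TPM, lay above the heterozygotes and reached the lowest homozygote. Its neighbour H2-Q7 stood at 9.57, 6.78, 13.99 and 3.16 TPM in the heterozygotes and 20.6, 26.7, 14.3 and 16.3 TPM in the homozygotes (log2 difference 1.24, SE 0.33, adjusted p = 0.356). The H2-Q genes are near-identical in sequence, so the split of reads between H2-Q6 and H2-Q7 is uncertain. The adjusted p of H2-Q6 was 0.0222 without HET-8304 and 0.0207 without HET-8309.

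The classical class I heavy chain H2-K1 (chromosome 17, 33996017 to 34000347, minus strand) stood at 619, 616, 585 and 586 TPM in the heterozygotes and 774, 732, 717 and 717 TPM in the homozygotes (log2 difference 0.29, SE 0.072, adjusted p = 0.356). All 4 homozygotes exceeded all 4 heterozygotes, whereas the wild types spanned 611 to 795 TPM and overlapped both groups. The other classical chain, H2-D1, stood at 845, 788, 904 and 811 TPM in the heterozygotes and 1042, 896, 914 and 905 TPM in the homozygotes with overlap (log2 difference 0.17, SE 0.089, adjusted p = 0.651). B2m, the light chain shared by class I molecules, lay at 3980.2 to 4538 TPM in heterozygotes and 4447 to 4658 TPM in homozygotes (log2 difference 0.10, SE 0.057, adjusted p = 0.673). Summed over the list, class I transcripts reached 7639.8 to 7931 TPM in heterozygotes and 8233 to 8743 TPM in homozygotes, without overlap, and 7564 to 8429 TPM in wild types.

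MHC class II genes were higher chiefly in HOM-8285, HOM-8287 and HOM-8282. Cd74, the invariant chain that escorts class II to endosomes, stood at 914, 1039, 1139 and 1045 TPM in the heterozygotes and 1464, 1943, 1190.3 and 1600.3 TPM in the homozygotes (log2 difference 0.57, SE 0.12, adjusted p = 0.257). The groups did not overlap in TPM, although HOM-8286 lay close to HET-8304, and wild types lay from 987 to 1128 TPM. H2-Aa, the alpha chain of I-A, stood at 510.4, 606, 623 and 555 TPM in the heterozygotes and 781, 1188, 613 and 834 TPM in the homozygotes (log2 difference 0.54, SE 0.16, adjusted p = 0.362). H2-Ab1, its beta chain, stood at 339, 362, 432 and 375 TPM in the heterozygotes and 546, 731, 418 and 528 TPM in the homozygotes (log2 difference 0.54, SE 0.13, adjusted p = 0.342). H2-Eb1, the beta chain of I-E, stood at 247, 295, 322 and 288 TPM in the heterozygotes and 402, 569, 311 and 416 TPM in the homozygotes (log2 difference 0.53, SE 0.14, adjusted p = 0.356). In these 3 chains HOM-8285 was highest, and HOM-8286 was the lowest homozygote and lay within the heterozygous range. Over the list, 12 of 16 members tested were higher, with a median of 0.090. Of these, 6 had an unadjusted p under 0.05, against 3.3% of all genes higher at that p, and 0 were called. The groups lay apart in 1 member, Cd74, against 1.5% of all genes tested, and in 6 without HET-8304, against 3.07%. In Y-expressing animals alone, HOM-8282 and HOM-8285 against the heterozygotes, the H2-Aa difference was 0.75.

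Class II promoters share a Y-box, the site bound by the factor NF-Y, and the stretch before the start of 2 class II genes and of B2m is shown as an example of this motif and of an interferon motif. They were chosen because they hold an exact match to the motif. H2-K1, H2-D1 and H2-Q7 also stood higher in homozygotes on average. They hold no exact match to the response element core given below in the 250 bases before the start. Looser forms of the element were not searched, so these genes may still hold one. Capitals mark the Y-box core (GATTGG on either strand) in the class II genes, and the interferon-stimulated response element core (GAAA, any 2 bases, GAAA, on either strand) in B2m. The Y-box letters also occur, unmarked, in B2m, and before H2-K1, H2-D1 and H2-Q7. Their share was counted for the class II list and all genes, not for class I. The sequences are RefSeq's for GRCm38.p6, which is mm10. Each is the 150 bases that end at the base before the transcript start, at chr17:34287824-34287973, minus strand for H2-Aa, chr17:34305717-34305866, plus strand for H2-Eb1 and chr2:122147537-122147686, plus strand for B2m.
H2-Aa: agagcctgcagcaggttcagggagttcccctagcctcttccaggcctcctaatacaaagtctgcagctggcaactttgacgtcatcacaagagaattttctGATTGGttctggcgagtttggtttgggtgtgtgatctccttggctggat
H2-Eb1: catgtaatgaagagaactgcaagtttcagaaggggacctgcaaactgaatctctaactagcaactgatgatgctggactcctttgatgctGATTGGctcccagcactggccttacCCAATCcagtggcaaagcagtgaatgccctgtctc
B2m: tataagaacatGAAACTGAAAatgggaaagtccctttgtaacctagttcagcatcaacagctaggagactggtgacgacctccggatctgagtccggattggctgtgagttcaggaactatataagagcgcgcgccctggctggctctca

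H2-Aa holds 1 Y-box core, starting 49 bases before the transcript start, and H2-Eb1 holds 2, starting 60 and 35 bases before it. In the 250 bases before the start, the Y-box core occurred in 9 of the 10 class II list members that had a promoter sequence (90.0%) and in 4486 of 27025 genes overall (16.6%). The response element core occurred in 3 of 17 class I members (17.6%), in 10 of 26 genes of the type I interferon list (38.5%) and in 936 of 27025 genes overall (3.46%). These counts take exact matches only, can miss looser forms of either site, and describe the letters alone. The interferon list itself was evenly split, with 17 members higher and 17 lower, a median of 6.5e-05 and 0 of 34 with an unadjusted p under 0.05. Isg15, a ubiquitin-like interferon target, lay from 13.2 to 30.9 TPM in heterozygotes and from 16.03 to 23.3 TPM in homozygotes.

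**Figure D2:**
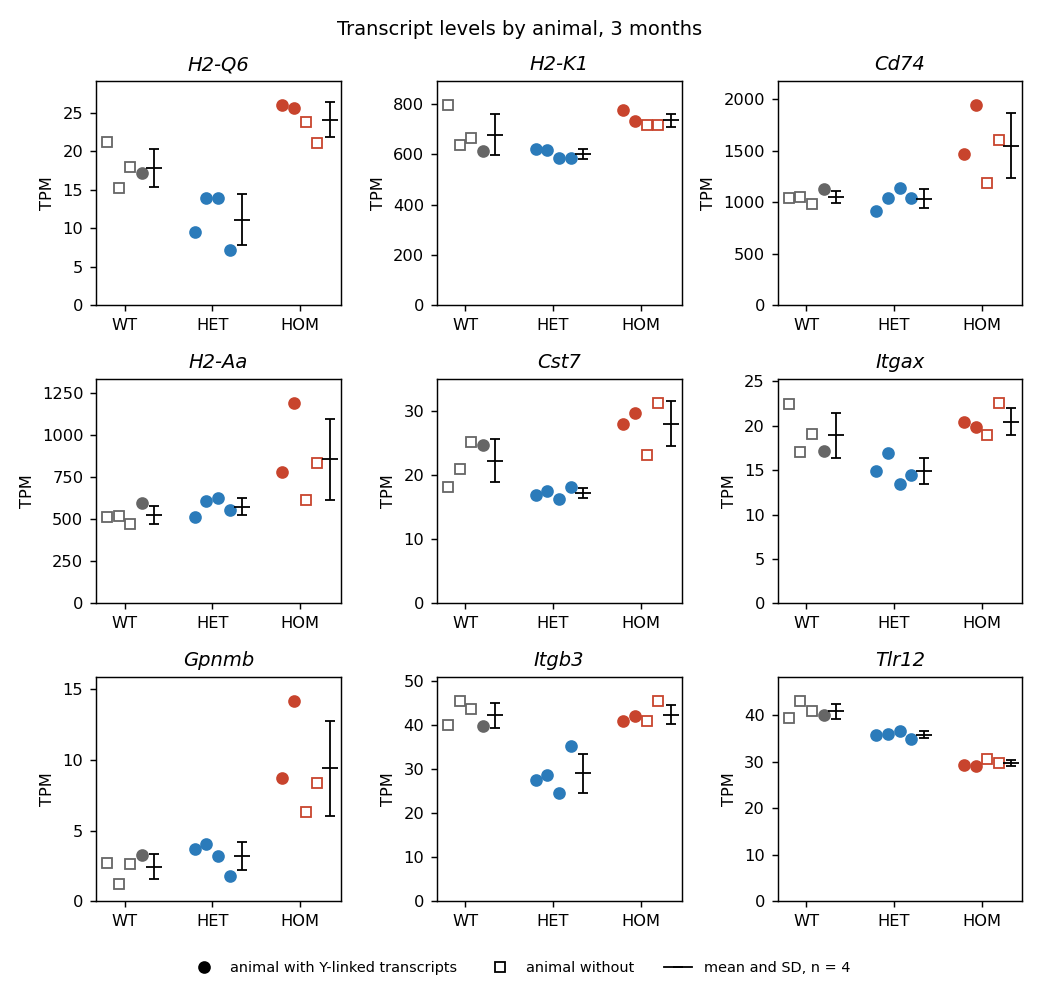
Levels (TPM, axes from 0) of 9 transcripts in each 3-month animal by genotype, with filled circles for animals that expressed Y-linked genes, open squares for those that did not, and the mean with SD (n = 4). H2-Q6, H2-K1, Cd74, Cst7, Itgax, Gpnmb and Itgb3 are higher and Tlr12 lower in every homozygote than in any heterozygote, while H2-Aa overlaps through HOM-8286.

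Of 31 genes of the disease-associated state, 5 were higher in every homozygote than in any heterozygote, and 0 were called. That order held for 1.5% of all genes tested. Cst7 (chromosome 2, 150570415 to 150578944, plus strand), which encodes cystatin F, an inhibitor of lysosomal cysteine proteases, stood at 16.8, 17.5, 16.3 and 18.2 TPM in the heterozygotes and 27.97, 29.6, 23.2 and 31.3 TPM in the homozygotes. The groups did not overlap, and the mean was 28.0 ± 3.49 TPM in homozygotes against 17.2 ± 0.796 in heterozygotes (SD, n = 4; log2 difference 0.66, SE 0.11, adjusted p = 0.0811). Wild types lay at 18.2 to 25.2 TPM. The adjusted p of Cst7 was 0.0335 without HET-8309, the highest heterozygote, and 0.0969 without HET-8304. Gpnmb, a glycoprotein of phagocytes with a high lysosomal load, stood at 3.696, 4.06, 3.23 and 1.78 TPM in the heterozygotes and 8.72, 14.1, 6.31 and 8.35 TPM in the homozygotes (log2 difference 1.29, SE 0.26, adjusted p = 0.193). Every homozygote lay above every heterozygote and above every wild type (1.203 to 3.25 TPM), and HOM-8285 was highest. Itgax, the integrin CD11c, stood at 14.9, 16.9, 13.4 and 14.5 TPM in the heterozygotes and 20.5, 19.9, 18.99 and 22.6 TPM in the homozygotes (log2 difference 0.43, SE 0.10, adjusted p = 0.289), with wild types at 17.1 to 22.4 TPM, above every heterozygote and overlapping the homozygotes. Clec7a, the beta-glucan receptor dectin-1, stood at 32.3, 33.7, 22.5 and 26.2 TPM in the heterozygotes and 34.6, 49.2, 28.2 and 37.5 TPM in the homozygotes with overlap (log2 difference 0.36, SE 0.17, adjusted p = 0.594). Apoe, a lipid carrier that also marks this state, lay from 3919 to 6248 TPM in heterozygotes and 4743 to 5723 TPM in homozygotes, and its difference of 0.091 (adjusted p = 0.928) turned negative without HET-8309.

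Of the 31 disease-associated members tested, 25 were higher and 6 lower in homozygotes, with a median of 0.12 and 0 called. In 5 the groups did not overlap, against 1.5% of all genes higher without overlap. All 5 were higher: Cst7, Itgax, Gpnmb, the chemokine gene Ccl6 and the tetraspanin gene Cd9. Summed over the list, the levels overlapped, at 30687 to 37066 TPM in heterozygotes and 31741 to 35325 TPM in homozygotes. The median was 0.18 without HET-8304 and 0.17 in Y-expressing animals. The homeostatic list lay near 0, with 17 of 27 higher and a median of 0.027. P2ry12 differed by 0.017 (SE 0.16, adjusted p = 0.995), Tmem119 by -0.14 (SE 0.084, adjusted p = 0.718) and Cx3cr1 by -0.0081 (SE 0.070, adjusted p = 0.995).

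Several other genes were higher in every homozygote, and in Itgb3, Akap1 and Slc39a4 every heterozygote lay below every wild type too. Itgb3, the beta-3 integrin chain that pairs with Itgav to bind vitronectin, stood at 27.6, 28.7, 24.5 and 35.2 TPM in the heterozygotes and 40.9, 42.003, 41.02 and 45.4 TPM in the homozygotes (log2 difference 0.54, SE 0.094, adjusted p = 0.107). Wild types stood at 40.1, 45.5, 43.5 and 39.8 TPM, within or beside the homozygous range. Akap1, which anchors protein kinase A at the outer mitochondrial membrane, stood at 6.01, 7.97, 7.75 and 9.17 TPM in the heterozygotes and 11.4, 13.2, 11.2 and 10.7 TPM in the homozygotes (log2 difference 0.54, SE 0.11, adjusted p = 0.193), with wild types at 10.9 to 11.8 TPM. Slc39a4, the zinc importer ZIP4, stood at 8.08, 7.32, 9.16 and 10.6 TPM in the heterozygotes and 13.0002, 12.9, 12.9 and 13.2 TPM in the homozygotes (log2 difference 0.53, SE 0.11, adjusted p = 0.193), with wild types at 10.9 to 13.2 TPM. In these 3 the heterozygotes were the low group, and HET-8309 was the highest of them. Without that animal the adjusted p was 0.0047 for Itgb3, 0.0236 for Akap1 and 0.0207 for Slc39a4. Without HET-8304 it was 0.0852, 0.187 and 0.173. HET-8309 lay nearest to the homozygotes in these genes, so leaving it out widens the difference by construction.

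Genes of lysosomal proteins were also among those higher in every homozygote. Arsg, a sulfatase that removes sulfate from heparan sulfate, stood at 27.04, 27.6, 32.8 and 43.95 TPM in the heterozygotes and 51.4, 54.7, 47.2 and 44.03 TPM in the homozygotes (log2 difference 0.60, SE 0.13, adjusted p = 0.289), with wild types at 40.5 to 49.7 TPM. HET-8309 and HOM-8287 lay next to each other. The adjusted p of Arsg was 0.00921 without HET-8309 and 0.264 without HET-8304. Cyb561a3, a lysosomal membrane reductase, stood at 95.8, 111, 103 and 118 TPM in the heterozygotes and 132, 138, 124 and 129.9 TPM in the homozygotes (log2 difference 0.29, SE 0.067, adjusted p = 0.289). Naglu, another enzyme of heparan sulfate breakdown, stood at 125, 129.5, 134 and 136 TPM in the heterozygotes and 156, 149, 156 and 145 TPM in the homozygotes (log2 difference 0.21, SE 0.054, adjusted p = 0.356), and Galns, which acts on keratan and chondroitin sulfate, differed by 0.17 without overlap in TPM. The lysosome list, which does not hold Arsg or Cyb561a3, had 33 of 55 members higher and 0 called. Its median was 0.032, or -0.0015 after quantile normalization. At an unadjusted p under 0.05, 3 members were higher, against 3.3% of all genes. Galns, Naglu and the sterol carrier gene Npc2, 3 members, had groups apart, against 1.5% of all genes higher without overlap. The E-box CACGTG, which reads the same on both strands and lies at the core of the site bound by the lysosomal regulator Tfeb, occurred before the start in 13 of 43 list members (30.2%) and in 1854 of 27025 genes (6.86%).

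The remaining genes of the 12 higher ones cover traffic, the cytoskeleton and lipid turnover. Arl5c, a small GTPase of the Arf family, stood at 18.1, 19.5, 17.6 and 18.7 TPM in the heterozygotes and 26.1, 28.3, 22.8 and 36.3 TPM in the homozygotes (log2 difference 0.57, SE 0.11, adjusted p = 0.193), with wild types at 22.1 to 24.6 TPM, above the heterozygotes and overlapping the homozygotes. Plbd1, which encodes a phospholipase B-like protein, stood at 18.6, 20.97, 17.6 and 21.8 TPM in the heterozygotes and 33.5, 38.1, 26.3 and 25.1 TPM in the homozygotes (log2 difference 0.60, SE 0.13, adjusted p = 0.259), with wild types at 18.6 to 23.5 TPM. Unlike Itgb3 or Akap1, Plbd1 had its wild types near the heterozygotes. Coro2a, an actin-binding coronin, stood at 14.02, 13.9, 14.7 and 18.1 TPM in the heterozygotes and 19.6, 18.98, 20.7 and 21.4 TPM in the homozygotes (log2 difference 0.39, SE 0.089, adjusted p = 0.289).

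Tlr12 stood lower in every homozygote, with little spread between animals. This endosomal receptor for microbial profilin (chromosome 4, 128615443 to 128618619, minus strand) stood at 35.7, 36.05, 36.6 and 34.8 TPM in the heterozygotes and 29.4, 29.1, 30.7 and 29.8 TPM in the homozygotes (log2 difference -0.26, SE 0.050, adjusted p = 0.193). Wild types stood at 39.5, 43.1, 40.9 and 39.96 TPM, so the 3 genotypes lay in steps without overlap in TPM, from wild type down to homozygote. In RPKM the homozygotes again lay below the heterozygotes, at 13.7 to 15.1 against 16.3 to 19.2, but the wild types (17.5 to 20.2) overlapped the heterozygotes. Of the 11587 genes tested, 10 (0.0863%) had wild types above heterozygotes above homozygotes without overlap, among them the targeted gene. 1 of these 10, the targeted gene, held the same order in RPKM. The list of nucleic acid sensors and Toll-like receptors that holds Tlr12 had 8 of 17 members higher and a median of -0.0017. Tlr12 and Irf3 had groups apart, against 2.85% of all genes lower without overlap. Samd1, which binds unmethylated CpG islands, stood at 43.3, 42.6, 48.6 and 43.6 TPM in the heterozygotes and 38.03, 33.9, 38.05 and 36.1 TPM in the homozygotes (log2 difference -0.28, SE 0.063, adjusted p = 0.289), with wild types at 40.1 to 44.3 TPM. Dynll2, a light chain of dynein and myosin V, stood at 75.8, 80.8, 91.1 and 85.6 TPM in the heterozygotes and 63.6, 63.4, 67.8 and 72.8 TPM in the homozygotes (log2 difference -0.31, SE 0.072, adjusted p = 0.289).

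Most ribosomal protein transcripts stood slightly higher in homozygotes, and none was called. Of 80 members tested, 77 were higher, with a median of 0.14 (0.19 without HET-8304, 0.071 after quantile normalization). Of these, 33 had an unadjusted p under 0.05, against 3.3% of all genes higher at that p, and 0 were called. The groups lay apart in 10 higher and 2 lower members, against 1.5% and 2.85% of all genes tested. Without HET-8304 they lay apart in 54 higher members, against 3.07% of all genes. In that setting 71 were higher at an unadjusted p under 0.05, and the share of all genes at that p is not reported here. Summed over the list, the levels overlapped, at 94263 to 115158 TPM in heterozygotes and 108379 to 117789 TPM in homozygotes. Rps4x, a protein of the small subunit, stood at 1469, 1539, 1506 and 1424 TPM in the heterozygotes and 1686, 1656, 1681 and 1745 TPM in the homozygotes (log2 difference 0.19, SE 0.050, adjusted p = 0.356). Genes with all 3 genotypes in rising order without overlap in TPM numbered 4 of 11587 (0.0345%): Rpl30, Rps3a1, Rps15a and Eef1b2, a subunit of translation elongation factor 1. They too were picked out once the values were known, and 0 of the 4 held the full order in RPKM. Rps15a stood at 52.1, 55.6, 54.3 and 57.7 TPM in wild types, 59.8, 64.7, 61.8 and 64.2 TPM in the heterozygotes and 70.4, 73.6, 70.9 and 65.997 TPM in the homozygotes. Rpl30, of the large subunit, differed by 0.17 in TPM and by -0.046 in RPKM, so its direction depends on the table.

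Inflammatory and immediate early genes were higher in homozygotes on average, with HET-8304 far below the other heterozygotes in several. Of the 31 members tested of the list of cytokines and NF-kB targets, 27 were higher, with a median of 0.20 that became 0.015 without HET-8304. The immediate early and dissociation-associated list had 22 of 28 higher and a median of 0.30, which became 0.011 without that animal. Fos, a subunit of AP-1, stood at 950.1, 998, 399.9 and 949 TPM in the heterozygotes and 967, 1113, 985 and 1134 TPM in the homozygotes. Il1b, which encodes interleukin-1 beta, stood at 116, 109.6, 25.2 and 116 TPM in the heterozygotes and 143, 44.7, 99.4 and 104 TPM in the homozygotes, and its difference of 0.20 became -0.33 without HET-8304. Egr1, a zinc finger factor induced by stimulation, was at 218 TPM in HET-8304 and at 680.3 to 997 TPM in the other 7.

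Relb and Ccl9, of the cytokine list, differed by 0.40 and 0.27 without that animal. Relb, a subunit of non-canonical NF-kB, stood at 22.8, 24.3, 26.3 and 31.01 TPM in the heterozygotes and 33.8, 37.3, 32.3 and 34.2 TPM in the homozygotes (log2 difference 0.39, SE 0.093, adjusted p = 0.323), with wild types at 29.5 to 36.2 TPM overlapping both groups. The chemokine gene Ccl9 stood at 62.6, 63.97, 57.9 and 71.3 TPM in the heterozygotes and 75.9, 84.2, 74.9 and 84.4 TPM in the homozygotes (log2 difference 0.32, SE 0.080, adjusted p = 0.356), with groups apart in both tables. Ccl5, a chemokine that T and NK cells also express, stood at 14.1, 17.4, 31.4 and 26.2 TPM in the heterozygotes and 48.6, 78.3, 27.1 and 39.8 TPM in the homozygotes (log2 difference 1.05, SE 0.29, adjusted p = 0.356). C3, the central complement component, stood at 4.68, 4.84, 6.61 and 6.15 TPM in the heterozygotes and 11.3, 9.32, 7.86 and 5.904 TPM in the homozygotes (log2 difference 0.53, SE 0.18, adjusted p = 0.427), while the complement list had 8 of 19 members higher and a median of -0.041.

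Most cholesterol synthesis genes stood lower in homozygotes. Of 24 cholesterol synthesis genes tested, 22 were lower in homozygotes, with a median of -0.10 (-0.082 without HET-8304). At an unadjusted p under 0.05, 5 were lower (3 without HET-8304), against 5.26% of all genes with all animals kept. The groups lay apart in 0 of them, against 2.85% of all genes lower without overlap, and 0 were called. Msmo1, a sterol demethylating oxidase, stood at 29.8, 35.1, 30.2 and 25.6 TPM in the heterozygotes and 22.7, 29.4, 22.98 and 23.1 TPM in the homozygotes (log2 difference -0.29, SE 0.10, adjusted p = 0.463). Insig1, which holds back sterol-driven transcription, stood at 13.7, 16.9, 15.1 and 12.2 TPM in the heterozygotes and 10.9, 13.9, 11.2 and 10.9 TPM in the homozygotes (log2 difference -0.28, SE 0.11, adjusted p = 0.515). HOM-8285 was the highest homozygote in both and lay within the heterozygous range, as it did for the isoprenoid enzyme gene Idi1. The list of lipid efflux and storage was evenly split, with 12 of 24 members higher and a median of 0.0014. Scd1, a fatty acid desaturase, stood at 10.5, 10.5, 28.7 and 8.64 TPM in the heterozygotes and 7.14, 5.88, 6.03 and 6.65 TPM in the homozygotes (log2 difference -0.91, SE 0.28, adjusted p = 0.386). The groups did not overlap, HET-8304 was highest, and the difference without it was -0.55.

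Energy metabolism and stress lists had small negative medians with all animals kept. Nuclear-encoded oxidative phosphorylation genes were lower in 59 of 73 members (median -0.058), and without HET-8304 the median was 0.022. Glycolysis genes were lower in 18 of 22 (median -0.047, 0.00069 without HET-8304). Their median was -0.11 in Y-expressing animals and -0.12 with a sex term. In 4 of them, all lower, the unadjusted p was under 0.05, against 5.26% of all genes. In 2 the homozygotes lay entirely below, against 2.85% of all genes, and 0 were called. The unfolded protein and integrated stress list was lower in 22 of 33 (median -0.064, -0.11 without HET-8304). Within it Pdia6, a disulfide isomerase of the endoplasmic reticulum, stood at 301, 301, 295 and 226 TPM in the heterozygotes and 238, 229, 235 and 246 TPM in the homozygotes (log2 difference -0.23, SE 0.086, adjusted p = 0.479). Here HET-8309 was the low heterozygote. The adjusted p of Pdia6 was 0.0213 without it and 0.702 without HET-8304. Sdf2l1, a chaperone cofactor of the same compartment, differed by -0.29 (SE 0.11, adjusted p = 0.479).

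Lists of autophagy, endosome and nutrient-sensing genes, for processes in which the C9orf72 complex acts, had small medians, from -0.041 to 0.0005. The autophagy list had 16 of 35 members higher and a median of -0.024, and 0 members had an unadjusted p under 0.05. Endosome and small GTPase genes had 10 of 35 higher and 25 lower (median -0.041), again with 0 at an unadjusted p under 0.05. The endosome median was -0.051 without HET-8304 and -0.060 in Y-expressing animals. With 1 animal left out it ran from -0.052 to -0.011. The list of mTORC1 and nutrient sensing had 14 of 27 higher (median 0.0005). With 0 members called in each list, the test does not show that these genes were equal. Cell cycle genes had 25 of 31 higher with a median of 0.083. Groups lay apart in Mki67, Ccna2, Bub1b and Tyms, against 1.5% of all genes higher without overlap. That median was 0.027 in RPKM, 0.20 after quantile normalization and 0.019 in Y-expressing animals.

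Of the 12 first genes that stood lower in homozygotes, 8 are best known from neurons, and these had the largest differences of the 24 after the targeted gene. Kif5a, the neuronal kinesin-1 heavy chain that carries cargo along axons (chromosome 10, 127225696 to 127263348, minus strand), stood at 177, 198, 661 and 67.5 TPM in the heterozygotes and 29.2, 21.9, 25.3 and 43.05 TPM in the homozygotes (log2 difference -2.74, SE 0.50, adjusted p = 0.148). Every heterozygote was above every homozygote, HET-8304 was far above the rest and HET-8309 lowest, and wild types stood at 31.02, 23.05, 34.05 and 21.5 TPM beside the homozygotes. Without HET-8304 the difference was -2.17, with an adjusted p of 0.0365. Rapgef4, a Rap exchange factor activated by cyclic AMP, stood at 39.0003, 45.8, 132 and 14.2 TPM in the heterozygotes and 8.05, 6.602, 6.18 and 10.4 TPM in the homozygotes (log2 difference -2.35, SE 0.47, adjusted p = 0.193). Kif5c, another kinesin-1 heavy chain, stood at 23.4, 26.5, 73.999 and 7.03 TPM in the heterozygotes and 4.19, 3.303, 3.17 and 5.604 TPM in the homozygotes (log2 difference -2.34, SE 0.48, adjusted p = 0.217). Pcsk1n, which encodes the prohormone convertase inhibitor proSAAS, stood at 12.1, 11.9, 53.8 and 8.69 TPM in the heterozygotes and 3.39, 2.499, 2.32 and 3.598 TPM in the homozygotes (log2 difference -2.15, SE 0.43, adjusted p = 0.193).

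The other 4 of these genes gave the same picture. Kif1a, the kinesin that moves synaptic vesicle precursors, differed by -1.90 (SE 0.42, adjusted p = 0.289), Nrsn1, a vesicle membrane protein, by -2.01 (SE 0.42, adjusted p = 0.217), the cortexin gene Ctxn1 by -1.96 (SE 0.45, adjusted p = 0.289) and Eef1a2, the elongation factor form of neurons and muscle, by -1.68 (SE 0.38, adjusted p = 0.289). In each, HET-8304 was highest, HET-8309 lowest among heterozygotes and the homozygotes lay within 1.48 to 5.81 TPM. Without HET-8304, limma called Pcsk1n, Nrsn1, Ctxn1 and Eef1a2 with Kif5a, and without HET-8309 it called Kif5a, Rapgef4, Kif5c, Pcsk1n, Kif1a, Nrsn1 and Ctxn1. Transcripts of synapses and growth cones were scarcer. Snap25, of the vesicle fusion complex, stood at 6.08, 3.29, 15.9 and 4.19 TPM in the heterozygotes and 2.24, 2.97, 1.9002 and 1.97 TPM in the homozygotes, and Stmn2, a growth cone protein, at 3.17, 1.76, 8.59 and 2.01 TPM in the heterozygotes and 1.14, 0.946, 1.197 and 0.696 TPM in the homozygotes.

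Of the 21 neuron markers, 13 passed the filter and 12 of these were lower in homozygotes, with a median of -1.02 (-0.49 without HET-8304). Groups lay apart in 6, against 2.85% of all genes lower without overlap. The neuronal markers Syt1 and Rbfox3 did not reach a mean of 1 TPM. Summed neuron markers amounted to 47.8 to 206 TPM in heterozygotes, 34.6 to 40.7 in homozygotes and 30.8 to 45.02 in wild types. In bulk samples a smaller number of cells of a type and less RNA per cell cannot be told apart, and the part of carried-over neuronal RNA in these differences was not tested.

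**Figure D3:**
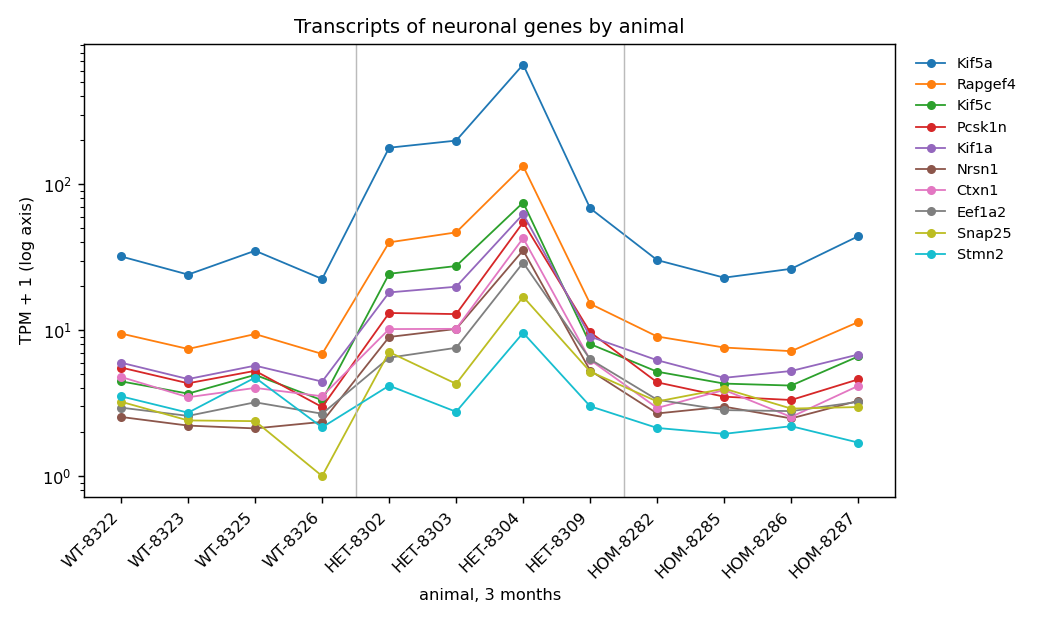
Levels of 10 neuronal genes (TPM + 1, log axis) in the 12 animals of 3 months, ordered by genotype, with 1 line per gene and vertical lines between genotypes. Kif5a runs from 67.5 to 661 TPM in heterozygotes and from 21.9 to 43.0 in homozygotes, and HET-8304 is highest for every gene drawn.

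Markers of other brain cells were lower in homozygotes as well. All 14 astrocyte markers tested were lower (median -0.94, -0.65 without HET-8304), 13 with an unadjusted p under 0.05, 8 with groups apart and 0 called. Among all genes, 5.26% were lower at that p and 2.85% lower without overlap. Aldoc, the aldolase of astrocytes, stood at 53.6, 43.9, 102 and 42.2 TPM in the heterozygotes and 22.9, 25.4, 30.6 and 30.9 TPM in the homozygotes (log2 difference -1.03, SE 0.25, adjusted p = 0.342). The glutamate transporter gene Slc1a2 stood at 22.5, 21.9, 32.5 and 13.7 TPM in the heterozygotes and 8.65, 12.3, 12.5 and 14.3 TPM in the homozygotes. Its adjusted p was 0.356, or 0.0292 without HET-8309, the lowest heterozygote, and 0.382 without HET-8304. Summed astrocyte markers reached 329.6 to 743 TPM in heterozygotes against 191 to 262 in homozygotes.

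All 11 oligodendrocyte markers tested were lower, with a median of -0.38 that was -0.075 without HET-8304. Mbp, myelin basic protein, stood at 776, 618, 2179 and 546 TPM in the heterozygotes and 509, 263, 271 and 327 TPM in the homozygotes (log2 difference -1.39, SE 0.41, adjusted p = 0.372), without overlap. All 21 endothelial and mural markers were lower (median -0.87, -0.46 without HET-8304). Cldn5, a tight junction protein of brain vessels, stood at 59.2, 14.8, 130.3 and 33.7 TPM in the heterozygotes and 24.8, 14.04, 21.6 and 16.7 TPM in the homozygotes and overlapped. The 12 choroid plexus and ependyma markers were lower too (median -0.86, -0.35 without HET-8304), with Ttr, transthyretin, at 3639 TPM in HET-8304 and 233 to 906 in the other 7 animals. The 6 erythrocyte markers tested had a median of -0.72, or -0.11 without HET-8304.

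Other myeloid and lymphoid cells left traces in both directions. Border-associated macrophage markers, from the phagocytes of meninges and vessel walls, were lower in 12 of 16 members (median -0.21). That median was -0.29 without HOM-8285, -0.088 without HET-8303, -0.13 without HOM-8286, -0.12 in Y-expressing animals and -0.13 with a sex term. Lyve1, a hyaluronan receptor of these cells, stood at 43.8, 51.6, 24.9 and 18.9 TPM in the heterozygotes and 16.99, 20.02, 18.1 and 22.6 TPM in the homozygotes (log2 difference -0.71, SE 0.26, adjusted p = 0.465), and HET-8302 and HET-8303 were high. Cbr2, a carbonyl reductase they express, stood at 164, 169, 164 and 129.8 TPM in the heterozygotes and 121, 127, 112 and 132 TPM in the homozygotes (log2 difference -0.34, SE 0.090, adjusted p = 0.356). Monocyte markers were higher in 11 of 15 (median 0.27, 0.49 without HET-8304 and 0.65 in Y-expressing animals). Napsa, an aspartic protease, stood at 6.16, 11.8, 13.1 and 12.6 TPM in the heterozygotes and 28.3, 21.005, 15.6 and 16.9 TPM in the homozygotes without overlap (log2 difference 0.86, SE 0.21, adjusted p = 0.342), and Plac8, of unsettled function, at 18.8, 31.8, 27.8 and 26.7 TPM in the heterozygotes and 140.0, 52.7, 37.7 and 30.2 TPM in the homozygotes, led by HOM-8282. Ly6c2, which marks classical monocytes, stood at 10.5, 13.4, 34.7 and 30.7 TPM in the heterozygotes and 55.99, 34.6, 32.4 and 20.04 TPM in the homozygotes, and Ccr2, their chemokine receptor, at 14.5, 19.1, 12.5 and 10.3 TPM in the heterozygotes and 14.3, 32.3, 12.1 and 13.9 TPM in the homozygotes, both with overlap.

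Neutrophil markers were higher in 14 of 17 members (median 0.24), with 0 at an unadjusted p under 0.05. With 1 animal left out the neutrophil median ran from 0.067 without HET-8303 to 0.53 without HET-8309, and was also below 0.10 without HET-8302 or HOM-8286. T and NK cell markers were higher in 8 of 10 of those tested (median 0.35, 0.79 in RPKM), while the defining T cell genes Cd3e and Cd3g did not reach the filter. Gzma, a cytotoxic granule protease, stood at 3.46, 3.13, 4.49 and 5.15 TPM in the heterozygotes and 13.2, 18.5, 4.67 and 8.18 TPM in the homozygotes, and Nkg7, a granule membrane protein, at 1.43, 1.06, 4.296 and 2.42 TPM in the heterozygotes and 5.26, 6.11, 3.39 and 3.81 TPM in the homozygotes. HOM-8285 was highest in both, as it was for Ccl5 and the class II genes. Summed T and NK markers lay at 36.5 to 63.003 TPM in heterozygotes and 53.03 to 132 TPM in homozygotes, with overlap. Whether these cells contributed to the class I and class II differences was not tested.

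**Figure D4:**
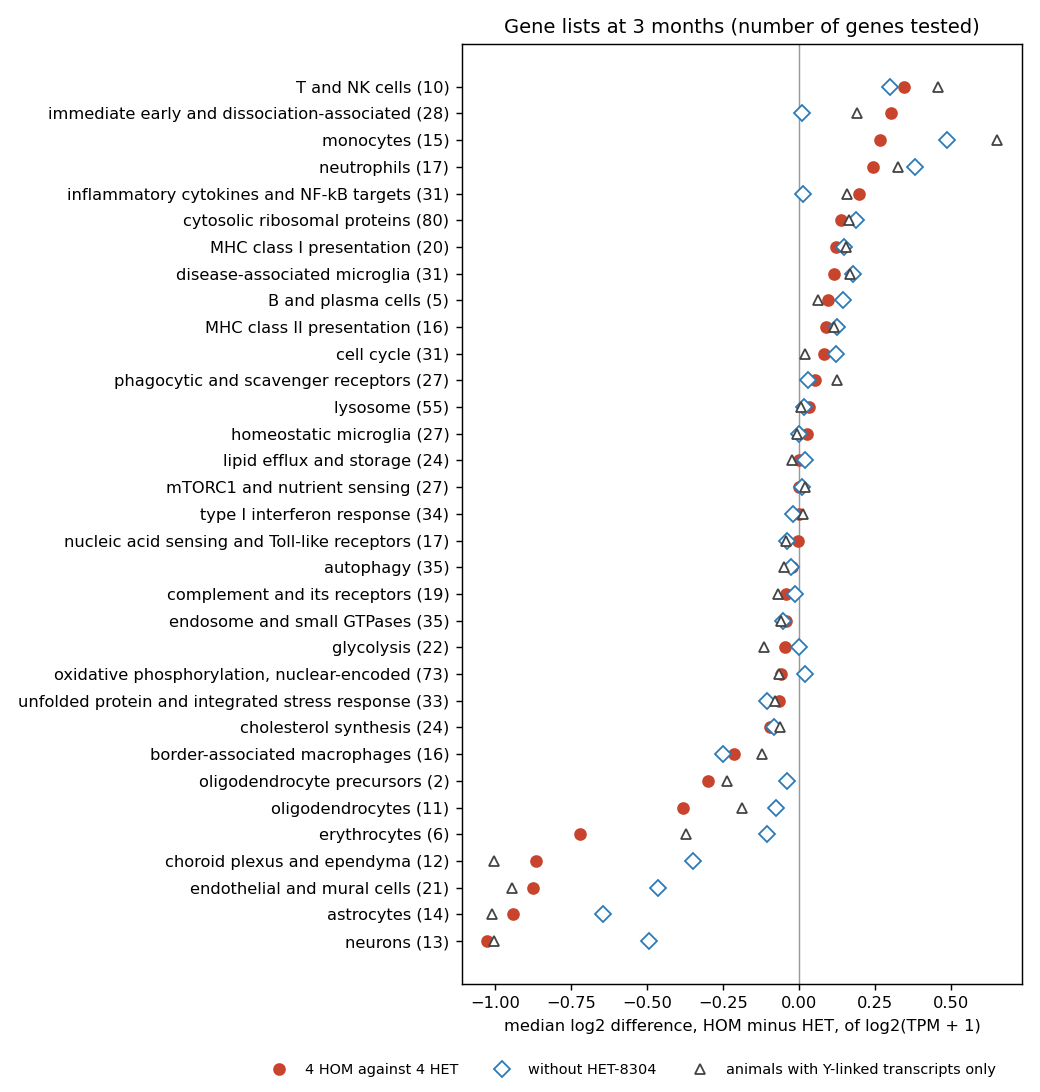
Median log2 difference (HOM minus HET) of each gene list at 3 months, with the number of genes tested, from all 8 animals (filled circles), without HET-8304 (diamonds) and in Y-expressing animals only (triangles). Neuron, astrocyte, vascular and choroid plexus lists lie lowest with all 8 animals. MHC, disease-associated and ribosomal lists stay above 0 in all 3 settings, as do several others, among them cell cycle, monocyte, neutrophil and lysosome.

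The same genotypes at 17 months gave another picture for several of these genes. At that age limma called 219 of 11792 genes (1.86%) between homozygotes and heterozygotes. A model over the 24 libraries tested whether the difference itself differed between ages and called 232 of 11436 genes (2.03%), but 90 in the RPKM tables and 22 after median centring of the libraries. Itgax was higher in homozygotes by 0.43 at 3 months and stood at -0.74 at 17 months (difference between ages 1.17, adjusted p = 0.035). Clec7a went from 0.36 to -0.92 (adjusted p = 0.0275), and both kept that call in RPKM and with centring. Cst7 went from 0.66 to -0.49 (adjusted p = 0.0338, 0.0447 in RPKM and 0.0654 with centring). The disease-associated median was 0.12 at 3 months and -0.27 at 17 months, where the median of all genes was 0.069. Cd74 was 0.57 and 0.39, and Tlr12 -0.26 and -0.33, at the 2 ages (adjusted p = 0.938 and 0.966 for the difference between ages).

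Vascular and astrocyte genes had opposite signs at the 2 ages. Cldn5 differed by -1.20 at 3 months and 1.40 at 17 months (adjusted p = 0.0361), and Aldoc by -1.03 and 0.82 (adjusted p = 0.0387). Neither call held with centring. Kif5a stood at 213 ± 57.5 TPM in heterozygotes of 17 months and 194 ± 167 in homozygotes (SD, n = 4). At 17 months 3 homozygotes and 0 heterozygotes expressed Y-linked genes, against 2 and 4 at 3 months, so age and the sex balance of the genotypes cannot be told apart.

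**Figure D5:**
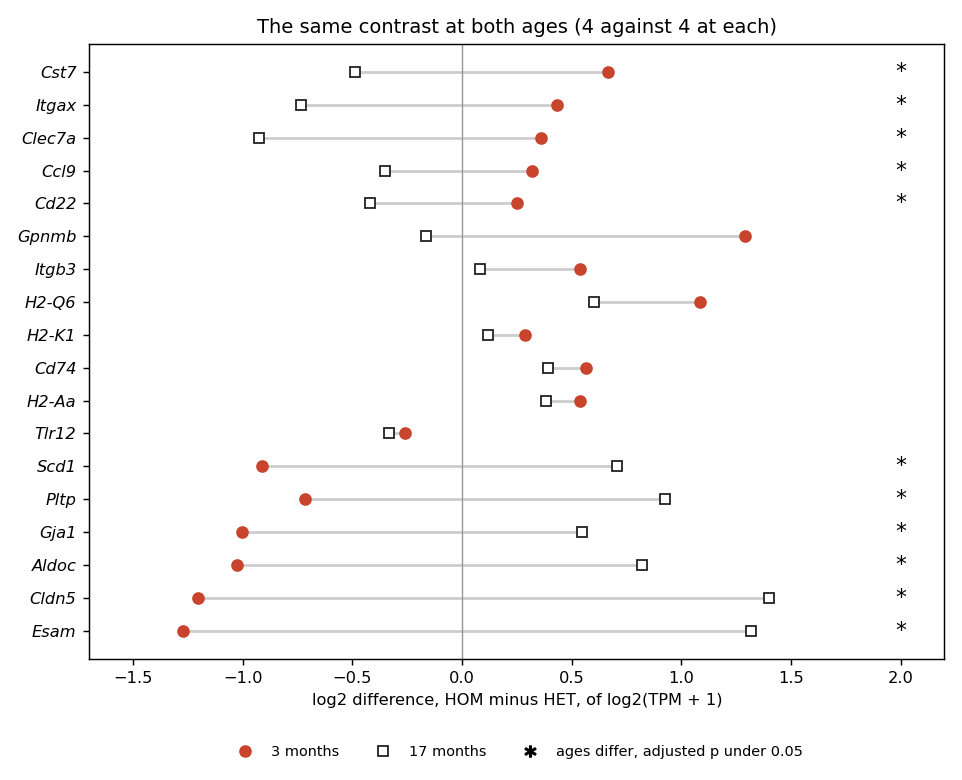
Log2 difference (HOM minus HET) at 3 months (circles) and 17 months (squares) of 18 genes, 4 animals against 4 at each age, with a star where the difference between ages had an adjusted p under 0.05. Cst7, Itgax, Clec7a, Ccl9 and Cd22 lie above 0 at 3 months and below 0 at 17 months, and Cldn5, Esam, Aldoc, Gja1, Pltp and Scd1 the other way.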

How the data were processed

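RNA of CD11b-enriched brain cells was measured in 24 samples, of which the 12 of 3 months enter the main model. The authors deposited TPM for 20636 genes and, in a second table, RPKM for 18721 genes with each library's alignments. The tools listed in the submitters' processing notes are Salmon 0.8.2, Partek 7.17.0918, DESeq2 and TopHat2 2.1.1, and the build is mm10, without a tool tied to a table. Both are normalized values, so depth per gene is unknown and no count model was run. Columns were put in groups by the genotype in the RPKM headers. The 17-month headers read hemi, taken as heterozygous. The 11587 genes that averaged 1 TPM or more in the 12 animals were fitted as log2(TPM + 1) with limma 3.58.1 in R 4.3.3 (moderated, trend, two-sided, Benjamini-Hochberg over all genes), and the RPKM table in the same way. The fit was checked on simulated data. The 3110043O21Rik mean and library size were tested by exact permutation over 70 assignments. Named genes are the complex, genes called in either table, the 12 first in each direction by the rule given in the report, and list members that define a list or have its smallest p. Coordinates come from GENCODE M21. The comparison, gene lists and rules were chosen with earlier results of these data known. Alternatives were another pseudocount, filter or scaling, the 8 animals only, a sex term, Y-expressing animals only, array weights, the RPKM table and leaving out each animal. Values of some list members are not reported here.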

Additional observations from a re-analysis of the deposited data

Results flagged for a closer look

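Within groups of 4, a single animal lay far from the other 3 by Dixon's criterion in 18 of 174 gene and group pairs tested. For independent, normally spread values the criterion flags about 1 in 20. Many of these genes were chosen by their values in these data and share the same animals, so that rate is no reference for the 18. HET-8304 accounted for 10. It was high for Pcsk1n (53.8 TPM), Nrsn1 (34.3 TPM), Samd1 (48.6 TPM), Ctxn1 (41.7 TPM), Eef1a2 (28.02 TPM), Eef1b2 (224 TPM), Mbp (2179 TPM) and Scd1 (28.7 TPM), and low for Fos (399.9 TPM) and Il1b (25.2 TPM). HET-8309 was low for Cbr2 (129.8 TPM) and Pdia6 (226 TPM). HOM-8285 was high for Ccr2 (32.3 TPM), Msmo1 (29.4 TPM) and Insig1 (13.9 TPM), and HOM-8282 for H2-D1 (1042 TPM). The remaining pair are values listed near 0, Fbxo21 in HET-8303 (1.66e-07 TPM) and Zfp873 in HET-8309 (2.98e-04 TPM).

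The homozygous minus heterozygous difference itself differed between 3 and 17 months (interaction term, limma, adjusted p under 0.05) in 11 of the genes named. The difference between ages was 1.15 for Cst7 (adjusted p = 0.0338), 1.17 for Itgax (adjusted p = 0.035), 1.28 for Clec7a (adjusted p = 0.0275), 0.67 for Ccl9 (adjusted p = 0.0366), -1.85 for Aldoc (adjusted p = 0.0387), -1.55 for Gja1 (adjusted p = 0.0385), -2.60 for Cldn5 (adjusted p = 0.0361), -2.59 for Esam (adjusted p = 0.0303), -1.62 for Scd1 (adjusted p = 0.0467), -1.64 for Pltp (adjusted p = 0.031) and 0.67 for Cd22 (adjusted p = 0.0485). In the RPKM tables Cst7, Itgax, Clec7a, Esam, Pltp and Cd22 kept an adjusted p under 0.05, and with median centring Itgax, Clec7a and Cd22 did. The sex balance of the genotypes differed between the ages, and its part was not tested.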

How the results depend on the processing

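The targeted gene kept its direction and call in all 18 alternatives. The count of called genes was 3 in the main setting, 1 at a mean of at least 5 TPM, 5 with median centring, 7 with quantile normalization, 5 with the 8 animals only, 1 in Y-expressing animals only, 1 in the RPKM table and 3074 with array weights (1551 higher and 1523 lower), where the weights ran from 0.212 for HET-8304 to 6.02 for HET-8302. With 1 animal left out it ran from 3 to 66. The count for the difference between ages was 232, or 90 in RPKM and 22 with centring. Of 1541 values of single genes under an alternative, 1525 kept their sign. The 16 that did not belong to 8 genes. With 1 animal left out, the difference ran from -0.030 to 0.26 for Smcr8, from -0.017 to 0.21 for Apoe, from -0.081 to 0.15 for P2ry12, from -0.057 to 0.043 for Cx3cr1, from -0.041 to 0.41 for Ccr2 and from -0.33 to 0.54 for Il1b. The other changes of sign were, with a sex term, Cx3cr1 (0.012); with array weights, added for single genes after seeing the data, P2ry12 (-0.18), Ccr2 (-0.074) and Il1b (-0.13); in RPKM Fbxo21 (-0.070) and Rpl30 (-0.046). The cause was not tested. List medians changed sign in 39 of 611 values. No paired analysis was possible because the animal numbers in the tables are matched to no replicate number in the sample titles. Precision is limited by 4 animals a group, and depth per gene is unknown.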

Other observations

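RNA input per library, which the labels give by sample but which could not be tied to the table columns, ran from 30.75 to 162.825 ng in heterozygotes and from 41.37 to 225.525 ng in homozygotes of 3 months. With HET-8304 left out, an alternative added after seeing the data, the homozygotes lay above the remaining 3 heterozygotes in 356 genes (3.07%) and below in 408 (3.52%). HET-8304 was the lowest of the 4 heterozygotes in 38.2% of genes tested and the highest in 28.2%, while HET-8303 was the highest in 42.6%. Among homozygotes HOM-8282 was lowest in 40.9% and HOM-8285 highest in 39.3%.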
